A study of Canis lupus familiaris with 20 samples.

Results

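TRIM proteins are a family of ubiquitin ligases built from a RING finger, B-box zinc fingers and a coiled coil, with a C-terminal part that differs between members and chooses the target. The RING finger hands ubiquitin from a conjugating enzyme to the target, which marks it for breakdown or changes its signalling. Members are known for antiviral defence downstream of interferon, for binding microtubules, for gene silencing in the nucleus and for quality control of proteins in the endoplasmic reticulum, and several are abundant in neurons. The TRIM genes were taken as all array probes whose gene name was TRIM followed by a digit, which gave 48 of 43603 probes for 33 genes. Where a gene had more than 1 probe, as 9 did, it was represented by the brightest on average over the 20 arrays.

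The retinas came from 10 dogs, each of which received 12 µg of CNTF (ciliary neurotrophic factor, a ligand of gp130 receptors that activates STAT3) in the vitreous of the right eye and PBS in that of the left eye, and each retina was measured after 1 week on an array of its own. Normal and CNGB3-mutant dogs thus each gave 5 PBS arrays and 5 CNTF arrays, which form the 4 groups. The mutants were m/m for the D262N missense change of CNGB3, the beta subunit of the cyclic nucleotide-gated channel of cones, and comprised 3 females and 2 males. All normal dogs were male, and 4 of them were +/m carriers while dog 3 was +/+. Sample labels gave ages of 8.9 weeks for normal dogs and 10.7 to 11.5 weeks for mutants, and the study text about 11 months for both. The PBS eye of each dog was its control, so whether CNTF in the right eye reached the left eye was not tested, and no uninjected eye was measured here.

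Between 52.2 and 71.9% of probes were well above background on an array, with 67.2 to 71.9% in PBS eyes of normal dogs and 52.2 to 70.1% in CNTF eyes of mutants. As a check of the tissue label, 7 of 7 rod markers and 6 of 7 cone markers were measurable, and the cone marker CNGA3 was above background on no array. The 5 slides of 4 arrays nearly followed treatment: only slide 3 held both, with CNTF eyes of normal dogs 1 and 2 beside PBS eyes of mutant dogs 4 and 5. Slide and treatment could therefore hardly be told apart. Slides were assigned by the barcode in each array's name, and the header barcodes did not bear this out throughout. Arrays named for slide 2 carried the barcode of slide 1 in their headers, and those of slide 1 were blank. Summed signals of the 7 cone markers, CNGA3 included, were 79.2 to 100 in PBS eyes of normal dogs and 21.1 to 30.4 in their CNTF eyes. In mutants the sums were 69.7 to 98.2 and 20.9 to 35.3, all in multiples of the array's 75th percentile. Summed signals of 10 microglia and macrophage markers went the other way, from 5.34–7.49 to 31.7–56.2 in normal dogs and from 7.8–9.9 to 37–66 in mutants. The part of these cell types in the TRIM values was not tested. In whole retina, fewer cells of a type and less RNA per cell cannot be told apart.

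A TRIM value here is a hybridisation signal to a 60-base probe, and 7 probes are shown because the results turn on them. They cover the 4 genes that changed in both genotypes, then TRIM28, which rose in normal dogs on each of the 3 probes carrying its name. The others are TRIM35, whose signal lay at background in CNTF eyes, and TRIM25, an antiviral member. None of the 3 members on the antiviral list used here, TRIM22, TRIM25 and TRIM38, could be tested. For TRIM36 and TRIM28 the probe shown is a further probe of the gene, which lies beside the brightest probe and changed as it did. Sequences are given 5′ to 3′ as the array files list them.
TRIM36: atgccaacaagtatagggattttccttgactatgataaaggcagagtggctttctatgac
TRIM13: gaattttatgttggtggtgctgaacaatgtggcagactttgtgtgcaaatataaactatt
TRIM69: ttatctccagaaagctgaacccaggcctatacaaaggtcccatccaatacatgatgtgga
TRIM41: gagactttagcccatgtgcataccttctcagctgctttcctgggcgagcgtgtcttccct
TRIM28: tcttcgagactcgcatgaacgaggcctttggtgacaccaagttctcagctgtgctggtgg
TRIM35: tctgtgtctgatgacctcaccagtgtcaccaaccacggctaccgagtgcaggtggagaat
TRIM25: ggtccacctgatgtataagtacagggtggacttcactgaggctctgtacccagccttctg
On the canFam2 build the TRIM36 probe lies at chr11:7886770-7886829 and the brightest TRIM36 probe at chr11:7886546-7886605, both on the minus strand. The TRIM13 probe is at chr22:4817636-4817695 (minus strand), the TRIM69 probe at chr30:14382538-14382597 (plus) and the TRIM41 probe at chr11:3427321-3427380 (plus). The TRIM28 probe is at chr1:102477738-102477797 (minus), the TRIM35 probe at chr25:33288416-33288475 (plus) and the TRIM25 probe at chr9:35030614-35030673 (minus). Each of the 7 probes holds at least 1 forward reading frame with no stop codon, as do 45 of the 48 TRIM probes, and exons were not assigned here. No TRIM probe shared a run of 25 bases with a probe of another gene name. Their GC content ran from 35% for TRIM13 to 55% for TRIM41, TRIM28 and TRIM35, so the level of one gene's probe says nothing about its level relative to another gene.

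By the 1 probe that stands for each of the 33 genes, 13 were well above background on all 20 arrays, others on some, and 3, TRIM22, TRIM38 and TRIM55, on none. Another TRIM22 probe was above it on 1 PBS array of a normal dog, and a probe that names TRIM38 only in its description on 1 CNTF array of a normal dog, whereas all 3 TRIM55 probes were above it on none. A gene was tested when its probe was above background on at least 4 of the 5 arrays of a group, which left 22 genes. The 11 untested genes were TRIM17, TRIM22, TRIM25, TRIM38, TRIM42, TRIM44, TRIM55, TRIM58, TRIM63, TRIM66 and TRIM71. These include all 3 members on the antiviral list: TRIM22, an interferon-induced restriction factor, TRIM25, which ubiquitinates the RNA sensor RIG-I, and TRIM38, a regulator of innate signalling. They also include both muscle RING finger genes, TRIM55 and TRIM63, and TRIM71, known from embryonic stem cells.

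**Figure D1:**
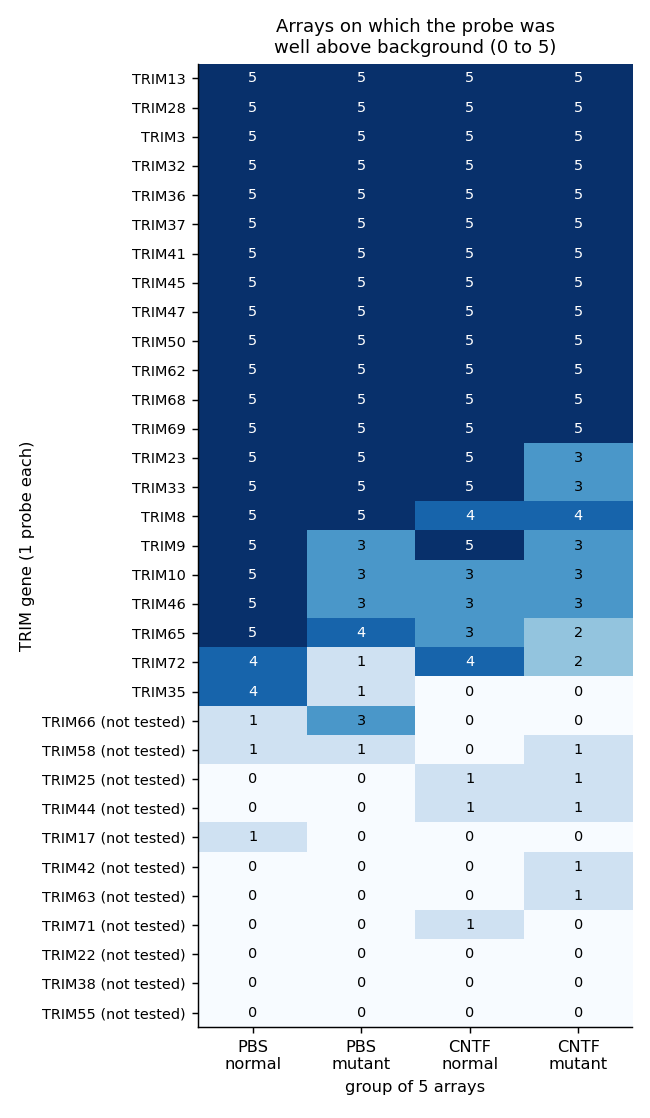
Number of arrays, 0 to 5 in each group of 5, on which each TRIM probe was well above background; rows are the 33 genes in order of their total and columns the 4 groups. The top 13 genes were above background on all 20 arrays, while TRIM35 was above it on 4 of 5 PBS arrays of normal dogs and on no CNTF array.

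TRIM25 was above background on no PBS array, on 1 CNTF array of a normal dog and on 1 of a mutant. Its mean level was -5.50 ± 0.82 (SD, n = 5) in PBS eyes and -4.64 ± 0.62 (n = 5) in CNTF eyes of normal dogs, in log2 units relative to the array's 75th percentile. With PBS arrays raised to at least the lowest signal that counted as above background, the CNTF mean of normal dogs was 1.1-fold higher. That CNTF mean holds only 1 array above background and takes the others as measured, so the value is no firm bound. The same rule gave no value in mutants. TRIM66, a relative of TRIM28 known from testis, was above background on 1 PBS array of a normal dog and 3 of mutants and on no CNTF array. For TRIM66 no bound could be set. A TRIM gene that was not above background was below what these probes could measure, which differs from absence.

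With CNTF, 11 of the 22 tested TRIM genes changed in normal dogs, 5 higher and 6 lower, against 51.2% of all 29336 probes tested. Of the 6 lower, TRIM35 and TRIM46 had passed the filter only through PBS eyes of normal dogs, where they were higher. In mutant dogs 7 changed, 2 higher and 5 lower, against 28.9% of probes. Of the 5 lower, TRIM65 had passed the filter only through PBS eyes, where it was higher. In both genotypes the TRIM share thus lay near that of the whole array. A change here means an adjusted p under 0.05 in limma with the dog as a block, adjusted over all probes. By direction, 22.7% of TRIM genes were higher and 27.3% lower in normal dogs, against 23.6 and 27.6% of probes, and in mutants 9.09% were higher and 22.7% lower, against 11.6 and 17.3%. The median TRIM change was -0.19 on the log2 scale in normal dogs and -0.12 in mutants, and the median of all probes was -0.090 in each. The counts rest on single dogs and on the background correction: 5 TRIM genes were called in normal dogs without normal dog 3 and 6 without normal dog 5. The shares of all probes called in normal dogs were then 37.4 and 37.6%. With normexp background correction the calls left were TRIM36 and TRIM13 in normal dogs and these and TRIM69 in mutants, and 61.1% of all called probes in normal dogs were then higher, against 46%. Normexp left 19.6% of all probes called in normal dogs and 11.2% in mutants.

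**Figure D2:**
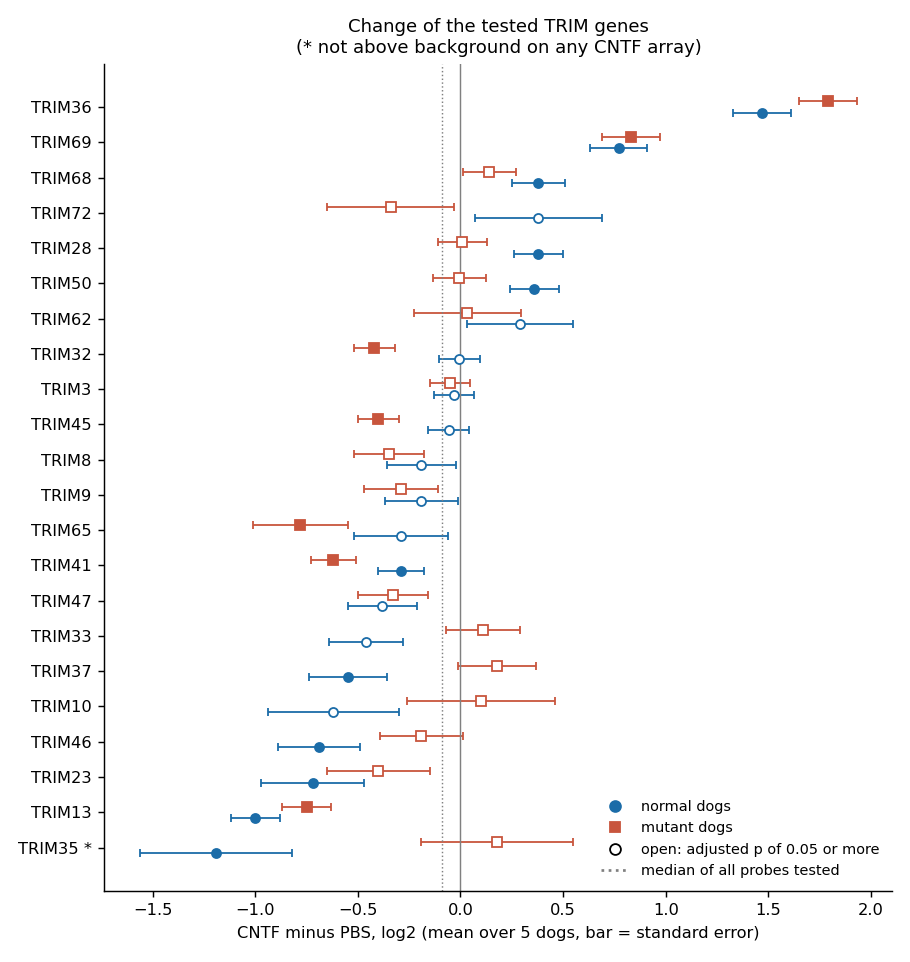
CNTF minus PBS on the log2 scale for the 22 tested TRIM genes, with circles for normal and squares for mutant dogs, bars for the standard error of the fit over 5 dogs, or over 4 mutant dogs for TRIM10 and TRIM50, and filled symbols for an adjusted p under 0.05. TRIM36 stands highest in both genotypes, at 1.47 and 1.79, and the starred TRIM35 had no CNTF array above background, so its point is a measured difference with no fold.

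The 4 genes called in both genotypes were TRIM36, TRIM69, TRIM13 and TRIM41, each in the same direction, against 19.2% of all probes called in both in the same direction. TRIM36, a ligase that binds microtubules through its COS box, rose most. In PBS eyes of normal dogs 1 to 5 its levels were -3.63, -3.45, -3.21, -3.40 and -3.26, and in their CNTF eyes -1.95, -1.89, -1.94, -1.77 and -2.04. In PBS eyes of mutant dogs 1 to 5 they were -3.41, -3.83, -3.79, -3.49 and -3.30, and in their CNTF eyes -2.19, -1.98, -1.70, -1.79 and -1.20. Every CNTF eye was above every PBS eye, in both genotypes. The rise was 1.47 ± 0.14 (SE; 2.77-fold; limma, adjusted p = 1.3e-05) in normal dogs and 1.79 ± 0.14 (3.46-fold; adjusted p = 3.71e-06) in mutants, and was seen in 5 of 5 dogs of each. With normexp it was 0.97 ± 0.17 (limma, adjusted p = 0.00196) and 1.10 ± 0.17 (adjusted p = 0.00103). The other TRIM36 probes rose as well, that shown above by 1.22 ± 0.18 in normal and 1.20 ± 0.18 in mutant dogs and the last by 1.08 ± 0.30 and 1.63 ± 0.30. Both were dimmer and missed background on some arrays, and the last probe's listed position spans 43 bases, less than the probe's length.

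TRIM69, a SPRY-type member that also associates with microtubules, rose less. Its levels in normal dogs 1 to 5 were -3.58, -3.55, -2.60, -3.29 and -3.25 in PBS eyes and -2.49, -2.62, -2.15, -2.42 and -2.71 in CNTF eyes. In mutant dogs 1 to 5 they were -3.21, -3.81, -3.49, -3.21 and -2.88 in PBS eyes and -2.43, -2.86, -2.26, -2.87 and -2.0 in CNTF eyes. The PBS eye of normal dog 3 was high and overlapped the CNTF eyes of other dogs, while in mutants the groups did not overlap, though barely. Within each dog the CNTF eye was the higher in 5 of 5 normal and 5 of 5 mutant dogs. The rise was 0.77 ± 0.14 (1.71-fold; limma, adjusted p = 0.00107) in normal dogs and 0.83 ± 0.14 (1.78-fold; adjusted p = 0.000901) in mutants. With normexp the call in normal dogs was lost, at 0.54 ± 0.19 (adjusted p = 0.0597).

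TRIM13, which is anchored in the membrane of the endoplasmic reticulum and acts in the breakdown of misfolded proteins there, fell. In normal dogs 1 to 5 its levels were 2.52, 2.71, 3.22, 2.96 and 3.17 in PBS eyes and 1.98, 1.91, 1.94, 1.79 and 1.95 in CNTF eyes. In mutant dogs 1 to 5 they were 2.84, 2.64, 2.48, 2.89 and 2.90 in PBS eyes and 2.19, 1.91, 1.93, 2.03 and 1.95 in CNTF eyes. CNTF eyes lay close together and below every PBS eye of their genotype. The change was -1.0 ± 0.12 (limma, adjusted p = 9.46e-05) in normal dogs and -0.75 ± 0.12 (adjusted p = 0.000829) in mutants, with 5 of 5 dogs lower in each.

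TRIM41, a SPRY-type ligase first described for protein kinase C, fell by less. In normal dogs 1 to 5 it measured -1.15, -1.20, -1.12, -1.36 and -1.49 in PBS eyes and -1.59, -1.63, -1.64, -1.51 and -1.39 in CNTF eyes. In mutant dogs 1 to 5 it measured -1.0, -1.06, -1.07, -1.04 and -1.12 in PBS eyes and -1.42, -1.55, -1.75, -1.86 and -1.80 in CNTF eyes. The mutant groups were apart, whereas in normal dogs they overlapped and dog 5 was higher in its CNTF eye. The change was -0.62 ± 0.11 (limma, adjusted p = 0.00156) in mutants and -0.29 ± 0.11 (adjusted p = 0.045) in normal dogs. In normal dogs the call was lost in 8 of 10 fits that left out a dog, and held only without normal dog 5 or without mutant dog 1. With normexp both calls were lost, at -0.14 ± 0.16 (limma, adjusted p = 0.539) in mutants and -0.12 ± 0.16 (adjusted p = 0.69) in normal dogs. TRIM69 and TRIM41 were given array by array after their values were seen.

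**Figure D3:**
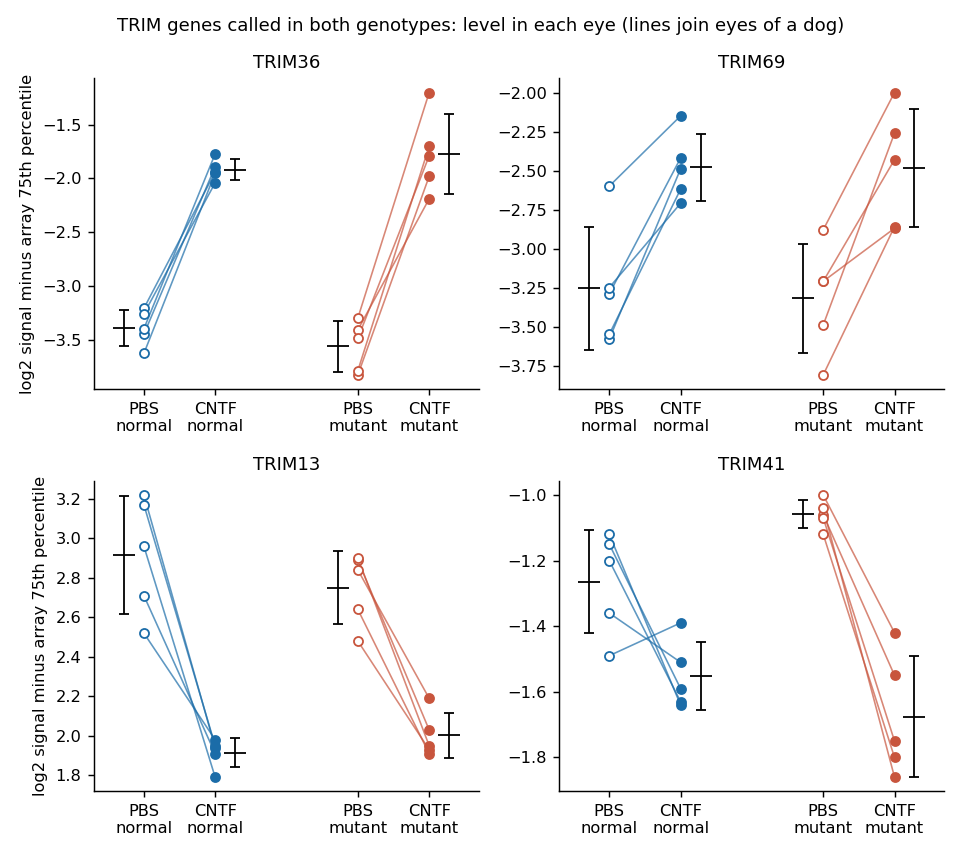
Log2 signal relative to the array's 75th percentile of the 4 TRIM genes called in both genotypes, with 1 point per eye, open for PBS and filled for CNTF, lines joining the eyes of a dog, and black bars for the group mean ± SD (n = 5). All 10 lines rise for TRIM36 and TRIM69 and fall for TRIM13, while for TRIM41 the line of normal dog 5 rises.

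Slide was fitted as an alternative because it nearly followed treatment. Within slide 3, the CNTF eyes of normal dogs minus the PBS eyes of mutants gave 1.47 for TRIM36, 0.49 for TRIM69, -0.95 for TRIM13 and -0.53 for TRIM41, which compares treatment and genotype together. With slide as a block and no dog block, TRIM13 in normal dogs was -1.46 ± 0.31 (limma, adjusted p = 0.0128) and was the only TRIM call left, and in mutants TRIM13 was -0.65 ± 0.31 (adjusted p = 0.384). TRIM36 was then 1.06 ± 0.36 in normal dogs (adjusted p = 0.123) and 1.19 ± 0.36 in mutants (adjusted p = 0.103). In that fit TRIM69 was 0.23 ± 0.53 in normal and 0.48 ± 0.53 in mutant dogs, and TRIM41 was -0.090 ± 0.24 and -0.44 ± 0.24. With slide and replicate block together no TRIM gene was called in either genotype. The whole array lost its calls too. With slide as a block 3.92% of all probes were called in normal dogs and 2.73% in mutants. With slide and replicate block together the shares were 0% and 0.161%.

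Among the nuclear members, TRIM28, the corepressor that KRAB zinc finger proteins recruit to silence repeats, rose in normal dogs. In normal dogs 1 to 5 its levels were 3.42, 3.22, 2.82, 3.15 and 3.0 in PBS eyes and 3.60, 3.33, 3.60, 3.33 and 3.64 in CNTF eyes. In mutants they were 3.19, 3.85, 3.34, 3.60 and 3.32 in PBS eyes and 3.39, 3.85, 3.21, 3.48 and 3.42 in CNTF eyes. Normal dogs were higher in the CNTF eye in 5 of 5 pairs, with groups that overlapped, and mutants in 3 of 5. The rise in normal dogs was 0.38 ± 0.12 (limma, adjusted p = 0.0199), and it was not called without normal dog 3, without normal dog 5 or with normexp (0.31 ± 0.17, adjusted p = 0.228). The other TRIM28 probes gave 0.37 ± 0.13, for the sequence shown, and 0.55 ± 0.14 in normal dogs, both called. In mutants the change was 0.0088 ± 0.12 (adjusted p = 0.964). The difference of the changes, -0.37, was not called (95% interval -0.75 to 0.010; adjusted p = 0.139). TRIM33, a partner of SMAD proteins, measured -0.46 ± 0.18 in normal dogs (adjusted p = 0.0525) and 0.11 ± 0.18 in mutants, while its other probe was called lower in normal dogs at -0.43 ± 0.14 (adjusted p = 0.0227). Of 8 tested partners of TRIM28 in silencing, 2 were higher and 1 lower in normal dogs, against 23.6 and 27.6% of all probes. In mutants 1 of the 8 was lower, against 17.3% of probes. The 4 with the smallest adjusted p in normal dogs were CBX5 (0.46 ± 0.098), CBX3 (-0.69 ± 0.17), SETDB1 (0.29 ± 0.10) and CBX1, which was not called at -0.21 ± 0.20.

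TRIM35, a SPRY-type member, met the condition on size, but its signal lay at the edge of detection and it entered the test only through PBS eyes of normal dogs. Its levels in normal dogs 1 to 5 were -4.34, -4.38, -4.88, -4.24 and -4.61 in PBS eyes and -6.21, -5.80, -5.40, -5.18 and -5.82 in CNTF eyes. In mutants they were -4.08, -6.29, -4.43, -6.53 and -5.15 in PBS eyes and -5.37, -4.23, -4.81, -5.96 and -5.22 in CNTF eyes. The normal groups did not overlap, and the mutant values were scattered. Group means were -4.49 ± 0.25 (SD, n = 5) and -5.68 ± 0.40 (n = 5) in normal dogs. With no CNTF array above background, the bound on the fold was under 1 and no fold is given, and since the filter chose TRIM35 through the group where it was high, its call supports nothing. The direction turned with normexp background correction, to 0.12 ± 0.32, and the call was lost without normal dog 1, without normal dog 2 or without normal dog 5.

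Among the microtubule-binding COS-box genes, TRIM46, which bundles microtubules at the start of the axon, fell by 0.69 ± 0.20 in normal dogs (limma, adjusted p = 0.0137; 4 of 5 dogs lower), a direction that turned to 0.12 with normexp. In normal dogs it was measurable in 5 PBS eyes and 3 CNTF eyes, and in mutants in 3 of each. TRIM46 thus passed the filter only through PBS eyes of normal dogs, where it was higher, so its call supports nothing. Its change in mutants was -0.19 ± 0.20 and was not called. TRIM9, a neuronal member that acts in netrin signalling, was not called at -0.19 ± 0.18 in normal and -0.29 ± 0.18 in mutant dogs. With TRIM36 these are the 3 tested members of the class: 1 rose and 1, TRIM46, fell in normal dogs, and 1 rose in mutants. Over all probes, 23.6% were higher and 27.6% lower in normal dogs, and 11.6% were higher in mutants.

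Of the NHL-repeat members, TRIM3, a brain-enriched ligase, measured 0.98, 0.74, 1.01, 1.02 and 0.58 in PBS eyes and 0.86, 0.67, 0.90, 0.89 and 0.84 in CNTF eyes of normal dogs 1 to 5. In mutants it measured 0.93, 1.27, 0.86, 0.87 and 0.88 in PBS eyes and 0.90, 1.06, 0.91, 0.65 and 1.04 in CNTF eyes. The groups overlapped, and its change was -0.032 ± 0.097 (95% interval -0.26 to 0.19) in normal dogs and -0.051 ± 0.097 in mutants. TRIM32, mutated in a limb-girdle muscular dystrophy, fell by 0.42 ± 0.10 in mutants (limma, adjusted p = 0.01; 5 of 5 dogs lower) and measured -0.0069 ± 0.10 in normal dogs. TRIM45, the filamin-type member and a repressor of MAP kinase signalling, likewise fell by 0.40 ± 0.099 in mutants (adjusted p = 0.0107; 5 of 5 dogs lower) and measured -0.057 ± 0.099 in normal dogs. With normexp both mutant calls were lost, at -0.24 ± 0.13 for TRIM32 (adjusted p = 0.241) and -0.20 ± 0.13 for TRIM45 (adjusted p = 0.297). In PBS eyes the mutant minus normal differences of TRIM32 and TRIM45 were 0.30 ± 0.12 and 0.36 ± 0.12 and were not called (adjusted p = 0.113 and 0.0977).

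In the SPRY class, 10 of 15 members were tested: 3 were higher and 2 lower in normal dogs, and 1 was higher and 2 lower in mutants. The lower counts include TRIM35 in normal dogs and TRIM65 in mutants, which the filter chose through the eyes where they were high. The shares of all probes were 23.6% higher and 27.6% lower in normal dogs, and 11.6 and 17.3% in mutants. Beside TRIM69, TRIM41 and TRIM35, the calls in normal dogs were TRIM68, a coregulator of the androgen receptor, at 0.38 ± 0.13 (limma, adjusted p = 0.0299), and TRIM50, known from the acid-secreting cells of the stomach, at 0.36 ± 0.12 (adjusted p = 0.0265). Both were higher in 5 of 5 dogs. The call of TRIM68 was lost without normal dog 3, 4 or 5, and that of TRIM50 without normal dog 3 or 5. With normexp they were not called, at 0.33 ± 0.14 and 0.43 ± 0.24 (adjusted p = 0.122 and 0.24). TRIM65, which ubiquitinates the RNA sensor MDA5, fell by 0.78 ± 0.23 in mutants (adjusted p = 0.028; 4 of 5 dogs lower), a direction that turned to 0.42 with normexp, and its call was lost without mutant dog 1, 2 or 4. In mutants it was measurable in 4 PBS eyes and 2 CNTF eyes. TRIM65 passed the filter only through PBS eyes, where it was higher, so its call supports nothing. The members not called in either genotype were TRIM10, known from red cell precursors, at -0.62 ± 0.32 in normal dogs, TRIM47 at -0.38 ± 0.17, TRIM62 at 0.29 ± 0.26 and TRIM72, which acts in membrane repair of muscle, at 0.38 ± 0.31. TRIM10 and TRIM72 were above background on 14 and 11 arrays, and TRIM10 lacked a usable spot in the CNTF eye of mutant dog 1, as TRIM50 did in the PBS eye of mutant dog 4.

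Of the remaining classes, TRIM23, which carries an ARF GTPase domain, fell by 0.72 ± 0.25 in normal dogs (limma, adjusted p = 0.0317; 4 of 5 dogs lower). The TRIM23 call was lost without normal dog 3, 4 or 5, and the direction turned to 0.92 with slide and replicate block together. TRIM37, the MATH-domain member that guards centriole number, fell by 0.55 ± 0.19 in normal dogs (adjusted p = 0.0312; 4 of 5 dogs lower) and lost its call without normal dog 1, 3 or 4. With normexp neither was called, at -0.17 ± 0.26 for TRIM23 and -0.24 ± 0.19 for TRIM37 (adjusted p = 0.716 and 0.438). Of the other TRIM37 probes, 2 measured -0.17 ± 0.17 and -0.64 ± 0.38 in normal dogs and were not called, and the last, above background on 4 PBS arrays of normal dogs and 1 CNTF array of a mutant only, gives no usable change. TRIM8, which acts on inhibitors of JAK-STAT signalling, measured -0.19 ± 0.17 in normal and -0.35 ± 0.17 in mutant dogs and was not called.

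Genotype was compared in 3 ways, and no TRIM gene was called in any. In PBS eyes 0 of 22 were called, against 0.0272% of 29433 probes. An unadjusted p under 0.05 in limma was reached by 3 TRIM genes and by 10188 of those probes. The smallest adjusted p of a TRIM gene was that of TRIM46, 0.0952, at -0.51 ± 0.14 in mutants minus normal dogs. Normal dog 1 decided this count: without it TRIM32 (0.35 ± 0.11), TRIM45 (0.42 ± 0.12) and TRIM46 (-0.45 ± 0.14) were called, and 21.5% of all probes were. TRIM46 had passed the filter only through PBS eyes of normal dogs, the higher group here. Its values in this comparison therefore support nothing. In CNTF eyes 0 of 22 were called, against 0.00681% of 29360 probes, and the smallest adjusted p of a TRIM gene was 0.751, for TRIM72. There 2 TRIM genes and 1647 of the probes had an unadjusted p under 0.05. The mutant minus normal difference of the CNTF change was called for 0 of 22 genes and for 0% of 29336 probes. For this difference 6 TRIM genes and 10168 of those probes had an unadjusted p under 0.05. The smallest adjusted p of the difference over the TRIM genes was 0.103, for TRIM32, at -0.41 ± 0.14 (95% interval -0.74 to -0.081). For TRIM36 the difference was 0.32 (interval -0.12 to 0.76), for TRIM13 0.25 (-0.15 to 0.64) and for TRIM69 0.061 (-0.38 to 0.50). A gene called in a single genotype is thus not shown to differ between genotypes. Sex and age could not be told apart from genotype in full, and TRIM counts with sex as a covariate or in males alone were also 0.

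The TRIM changes were set beside lists of genes that work with them. Among RNA sensors and type I interferon signalling, 10 of 13 tested genes were higher and 0 lower in each genotype, where 23.6% of all probes were called higher in normal and 11.6% in mutant dogs, with a median change of 0.63 in normal and 0.86 in mutant dogs. Among those with the smallest adjusted p in normal dogs were IFIH1 (2.20 ± 0.19), the ubiquitin-like ISG15 (5.05 ± 0.46) and DHX58. DHX58 was above background on 1 of 5 PBS and 5 of 5 CNTF arrays in each genotype, and it was tested only through the eyes where it was high, so no change is given for it. USP18 was above background on 2 PBS arrays of normal dogs, 1 of mutants and 5 of 5 CNTF arrays in each genotype, so it too was tested only through CNTF eyes. DHX58 and USP18 are counted among the 10 and in the medians, and their calls support nothing. Of 7 tested genes on a list of interferon-induced ligases and their partners outside the TRIM family, 6 were higher in normal dogs and 4 in mutants. The shares of all probes called higher were again 23.6 and 11.6%. The list was led by DTX3L (1.88 ± 0.14), its partner PARP9 (1.13 ± 0.10), HERC5 (1.23 ± 0.16) and RNF213. RNF213 had 3 of 5 PBS and 5 of 5 CNTF arrays above background in each genotype. It too was tested only through CNTF eyes, where it was high, so no change is given for it. RNF213 is counted among the genes called higher, and its call supports nothing. Of 15 tested ubiquitin-activating and conjugating enzymes, 7 were higher and 1 lower in normal dogs and 4 higher and 0 lower in mutants, against the same shares of all probes. The conjugating enzymes were led by UBE2L6 (3.18 ± 0.18), which carries ISG15, and the activating enzymes by UBA7 (2.08 ± 0.16), which also serves ISG15, followed by UBE2E1 (0.75 ± 0.094) and UBE2V1 (0.71 ± 0.097). Of the TRIM-type genes under other names, MEFV, the pyrin gene, fell by 0.92 ± 0.18 in normal dogs, and MID1 was not called at 0.027 ± 0.13. The lists were chosen with earlier results of these data known, so their direction is no independent evidence.

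**Figure D4:**
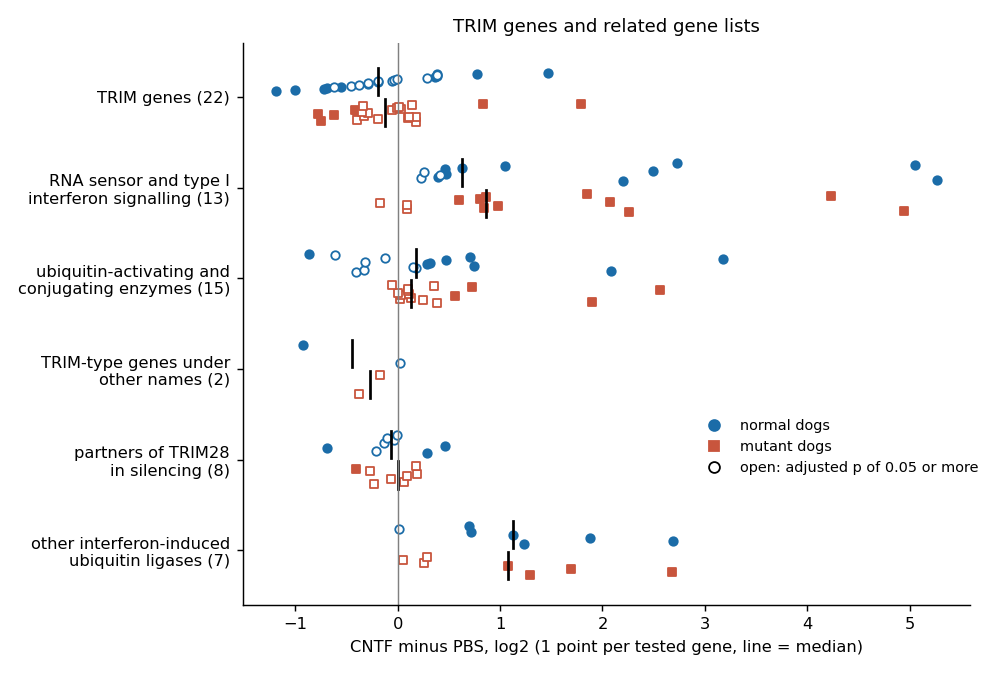
CNTF minus PBS on the log2 scale for each tested gene of the TRIM family and of 5 related lists, with the number tested in brackets, circles for normal and squares for mutant dogs, filled symbols for an adjusted p under 0.05 and black lines for medians. The TRIM medians lie at -0.19 and -0.12, beside 0.63 and 0.86 for interferon signalling and 1.13 and 1.08 for the other interferon-induced ligases and their partners. Those lists include DHX58, USP18 and RNF213, which were tested only through CNTF eyes, where they were high.

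The gene names in the array files left out some TRIM genes. A further 19 probes named a TRIM gene only in their description and so were no members, among them probes for 9 genes not counted above. They were looked up after the files were seen, and the alternatives were not run on them. TRIM21, the cytosolic antibody receptor and an interferon-induced gene, rose from a mean of -2.95 ± 0.55 (SD, n = 5) in PBS eyes to -0.53 ± 0.25 (n = 5) in CNTF eyes of normal dogs, a change of 2.42 ± 0.26 (limma, adjusted p = 3.61e-05). In mutants it rose from -2.73 ± 0.51 to -0.64 ± 0.30, by 2.09 ± 0.26 (adjusted p = 0.000127). CNTF eyes were above PBS eyes in all 10 dogs, the groups did not overlap, and the slide 3 difference was 2.55. A TRIM44 probe of this kind was above background on all 20 arrays and not called (0.18 ± 0.094 in normal dogs), whereas the probe carrying the TRIM44 name was above background on 2. For TRIM28 and TRIM68 such probes did not follow the named ones. That of TRIM28 measured -0.28 ± 0.12 in normal dogs and fell by 0.42 ± 0.12 in mutants (limma, adjusted p = 0.0191), and that of TRIM68 measured -0.0095 ± 0.10 in normal dogs and was not called. TRIM11 fell by 0.70 ± 0.20 in normal dogs (adjusted p = 0.0139). Of 4 probes described as TRIM2, 1 rose in normal dogs, by 1.06 ± 0.15, and 3 were not called. Of 2 described as TRIM7, which lie on different chromosomes, that on chromosome 14 fell by 1.31 ± 0.19 in normal and 0.67 ± 0.19 in mutant dogs and that on chromosome 11 measured -0.088 ± 0.092 and -0.055 ± 0.092. A probe described as TRIM29, a member without a RING finger, was above background on 5 PBS arrays and on no CNTF array of normal dogs, at least 1.11-fold lower in CNTF eyes, and on 1 PBS array and 3 CNTF arrays of mutants. It passed the filter only through PBS eyes of normal dogs, so no test is given for it. The other probes described as TRIM29 were above background on 0 and 2 of the 20 arrays and were not tested.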

How the data were processed

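Total RNA of 20 dog retinas (integrity number above 8, 100 ng, Cy3) was hybridised to 1-colour Agilent arrays, 4 per slide. Per the file headers, the deposited spot intensity is the output of Agilent Feature Extraction 9.5.3.1 after background subtraction, with no scaling between arrays. The authors' deposited matrix holds log2 values with a median of 6.18 on each array, as after quantile normalization, and served as an alternative. The submitters' processing notes list Partek 6.4. Per the file headers, coordinates are those of canFam2.

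Control spots (1417) and outlier spots were left out, and spots of a probe averaged. Log2 processed signal minus the array's 75th percentile (291 to 592 intensity units) was used. Probes needed at least 4 arrays well above background within some group (29545 of 43603; 21400 on all 20), and tests needed at least 3 values per group. limma 3.58.1 in R 4.3.3 was fitted two-sided to all arrays with the dog as a fixed block and a CNTF term per genotype, and to 10 arrays without covariates for genotype. Benjamini-Hochberg adjustment ran over all probes tested. The fits were tested on simulated data. Figures used Python 3.11.15 with matplotlib 3.10.9. The number of arrays limits the precision.

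The eyes of a dog pair by design, and the labels give same-numbered eyes the same genotype, sex and age. After subtracting group means, the eyes of a dog had correlations from -0.156 to 0.693 (all probes) and from 0.173 to 0.734 (the 500 most variable). Array by array values are given for TRIM genes called with a log2 change of at least 1 in a CNTF comparison and for the 3 whose probes had the highest signal, a rule for naming only; of each related list, the 4 genes with the smallest adjusted p in normal dogs are named, except 1 that is not reported here. The TRIM genes, lists and alternatives were chosen with earlier results of these data known. Current symbols of UU_Cfam_GSD_1.0 held 32 of the 33 names, TRIM10 being the exception.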

Additional observations from a re-analysis of the deposited data

Results flagged for a closer look

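In 28 groups of 5 arrays examined, 7 TRIM genes in 4 groups each, 2 groups held an array far from the rest, and chance flags about 1 group in 20. Both concern TRIM3. The PBS eye of mutant dog 2 stood at 1.27, with the nearest of the others at 0.93, and the CNTF eye of normal dog 2 at 0.67, with the nearest at 0.84, in log2 units relative to the array's 75th percentile.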

How the results depend on the processing

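In normal dogs the 11 TRIM calls became 2 with normexp background correction, 7 with quantile normalization, 6 with the deposited values, 7 with no filter on dim probes, 1 with slide as a block and 0 with slide and replicate block together (3 at an unadjusted p under 0.05 in limma); the mean over a gene's probes gave 12. In mutants the 7 calls became 3 with normexp, 0 with slide as a block (4 unadjusted) and 0 with slide and replicate block together (1 unadjusted), and stayed within 1.5 times otherwise. With no replicate block, the pairing ignored, 8 were called in normal dogs and 7 in mutants. Leaving out a dog gave 5 to 11 calls in normal dogs, 6 to 8 in mutants, 0 to 3 for genotype in PBS eyes, and 0 for genotype in CNTF eyes and for the difference. Directions reversed with normexp for TRIM35 (0.12) and TRIM46 (0.12) in normal dogs and TRIM65 (0.42) in mutants, and with slide and replicate block together for TRIM23 in normal dogs (0.92); the cause was not tested. Normexp moved the median of all probes from -0.090 to 0.092 in normal dogs and 0.17 in mutants. TRIM13 and TRIM36 were called in both genotypes under every alternative run except those with slide in the fit. Without mutant dogs 1 and 2 together, chosen after seeing the data, 9 were called in normal dogs and 5 in mutants. Probes near background limit TRIM35, TRIM65, TRIM72 and the untested genes.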
